A study of Mus musculus with 12 samples.

Results

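Cells of the mouse esophageal epithelium that carried transcripts of the late cell cycle were singled out from single-cell libraries of young and aged C57BL/6 mice. A cell was taken as a member when the counts of Top2a, Mki67, Cdk1, Cenpf, Ccna2, Nusap1, Aurkb and Cdc20, summed over both libraries of its mouse, came to 3 or more. This held for 884 of 4317 kept cells (20.5%), 399 of 2032 in aged and 485 of 2285 in young mice. The 8 genes chose the members, so their levels in members against other cells are given as a description with no test.

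The series compared peeled esophageal epithelium of young mice, up to 4 months old, with that of aged mice, at least 18 months old. Each age had 3 numbered mice, and each mouse had 2 droplet (inDrop) libraries. The labels give no sex, exact age or date for a mouse, and do not say whether a numbered mouse is a single animal or a pool. No mouse carried a transgene or received a treatment, as far as the labels state. Members of a mouse share their libraries, so the mouse was the unit of every test.

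The esophagus is lined by a layered squamous epithelium that is renewed throughout life. Division takes place in the basal layer, whose cells express Krt5, Krt14 and Krt15, and the daughters that leave it switch to Krt4 and Krt13 and are shed at the surface. A cycling cell first replicates its DNA with the help of the MCM helicase, PCNA and the enzymes that make nucleotides. It then builds up cyclin B, CDK1, spindle motors and kinetochore proteins, divides, and destroys many of these proteins through the anaphase-promoting complex. The late genes are known to be switched on together in G2, through promoters bound by the MuvB complex with B-MYB and FOXM1 and by the factor NF-Y.

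In the 12 libraries, members had a median of 1992 to 2931.5 counts per cell by mouse, against 1752.5 to 2716 in the other cells, and between 902 and 1161 genes against 820.5 to 1013. Of the barcodes of a mouse, 88.1% to 97.8% were found in both of its libraries, and the counts were summed. Of the kept cells, 1200 had a barcode 1 base away from that of another kept cell of the same mouse. These formed 635 pairs, and in 97 of the 140 pairs that held a member both barcodes were members. Pairs of this kind resembled each other more (median correlation of their counts 0.35 to 0.43 by mouse) than other pairs did (0.29 to 0.33). Whether such a pair is a single cell was not tested. Merging the pairs left 3707 cells, of which 796 (21.5%) were members. Merged values stand beside the counts of the mitotic and replication lists, the phase shares, the keratin bins, the Cdc20 split and the comparisons of age; the other values were computed without merging. Aged mouse 2 stood apart: its members carried 1825 CPM (counts of a gene per 1000000 counts) on genes of the superficial layer, against 0 to 571 CPM in the members of the other 5 mice.

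Among the selecting genes, Top2a, the topoisomerase that untangles sister DNA, had 1307, 1558 and 1698.5 CPM in members of aged mice 1 to 3. The young mice had 1431, 1287.5 and 1556 CPM. In the other cells Top2a lay between 2.38 and 32.5 CPM. Cenpf, a large kinetochore protein of G2 and mitosis, had 1290, 1682 and 1531 CPM in aged and 1220, 997 and 1848 CPM in young members. The values of old and young mice were interleaved for both genes. Mki67, which coats mitotic chromosomes, ranged from 682 to 981 CPM in members, and Ccna2, the cyclin of S phase and G2, from 467 to 680 CPM. Nusap1, a spindle microtubule binder, lay between 413 and 573 CPM. Cdk1, the kinase that drives entry into mitosis, lay between 319 and 598 CPM, and Aurkb, the kinase of the chromosomal passenger complex, between 241 and 400 CPM. Cdc20, which turns on the anaphase-promoting complex, ranged from 284 CPM in aged mouse 1 to 679 CPM in aged mouse 3. This was the largest ratio of highest to lowest among the 8 genes (2.39, against 1.32 to 1.87 for the others). It rested on aged mouse 1, which had the fewest members (36), 12 of them with a Cdc20 count. In the other mice Cdc20 ranged from 431 to 679 CPM. No selecting gene was seen in every member: by mouse, 69.6% to 82.9% of members had a Top2a count and 27.8% to 40% an Aurkb count.

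The promoters of the selecting genes are shown because the genes were chosen as a group that is known to be switched on together. Windows of 300 bases, 250 before to 50 after the annotated start, came from a set made from RefSeq (GRCm38.p6). The set held windows for 6 of the 8 genes and none for Ccna2 and Aurkb. The windows were searched on both strands for TTTGAA, the core of the cell cycle genes homology region, and for CCAAT, the NF-Y motif. Neither motif overlaps the other. The last 200 bases are printed 5′ to 3′ on the gene's own strand, with both motifs in capitals (TTTGAA or its complement TTCAAA as 6 letters, CCAAT or its complement ATTGG as 5).
Top2a: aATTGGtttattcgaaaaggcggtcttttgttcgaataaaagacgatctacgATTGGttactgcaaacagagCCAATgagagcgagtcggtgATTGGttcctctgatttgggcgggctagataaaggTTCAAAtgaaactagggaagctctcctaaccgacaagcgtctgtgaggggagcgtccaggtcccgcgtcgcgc
Mki67: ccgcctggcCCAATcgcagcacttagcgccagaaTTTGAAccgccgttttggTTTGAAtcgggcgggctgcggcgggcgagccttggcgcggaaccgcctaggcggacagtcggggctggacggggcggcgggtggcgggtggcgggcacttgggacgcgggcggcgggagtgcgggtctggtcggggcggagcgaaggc
Cdk1: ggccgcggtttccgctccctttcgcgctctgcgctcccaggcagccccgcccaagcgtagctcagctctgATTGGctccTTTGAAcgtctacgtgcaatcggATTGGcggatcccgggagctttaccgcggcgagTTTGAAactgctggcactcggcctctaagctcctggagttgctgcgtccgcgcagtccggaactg
Cenpf: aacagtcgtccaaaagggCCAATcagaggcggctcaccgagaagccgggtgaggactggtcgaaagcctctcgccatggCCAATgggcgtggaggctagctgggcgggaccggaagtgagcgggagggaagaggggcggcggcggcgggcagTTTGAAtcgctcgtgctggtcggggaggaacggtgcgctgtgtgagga
Cdc20: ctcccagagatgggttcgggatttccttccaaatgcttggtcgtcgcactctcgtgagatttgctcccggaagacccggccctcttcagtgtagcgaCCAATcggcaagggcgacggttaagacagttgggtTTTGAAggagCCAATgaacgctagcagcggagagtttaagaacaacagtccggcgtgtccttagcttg
Nusap1: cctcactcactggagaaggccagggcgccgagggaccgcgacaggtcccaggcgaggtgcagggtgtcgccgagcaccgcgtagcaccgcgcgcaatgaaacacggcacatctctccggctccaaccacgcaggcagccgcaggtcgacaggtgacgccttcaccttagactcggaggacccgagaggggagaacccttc
These stretches lie at chr11:99024140-99024339, chr7:135716330-135716529, chr10:69352863-69353062, chr1:189688037-189688236 and chr4:118437294-118437493 on the minus strand and at chr2:119618148-119618347 on the plus strand. TTTGAA was found in 5 of the 6 windows and not in that of Nusap1, against 20.2% of all 27025 genes with a window. Counted to its first base, the motif lay 15 and 71 bases before the start in Cdk1, 18 in Cdc20, 23 and 179 in Top2a and 98 and 116 in Mki67, and at base 3 after it in Cenpf. At least 2 CCAAT motifs stood in the same 5 windows, against 13.1% of all genes, and Top2a held 6. Of the mitotic genes outside the selecting set, 34 of the 53 with a window (64.2%) held TTTGAA and 19 (35.8%) held both it and at least 2 CCAAT. Both were held by 2.78% of all genes and by 2 of 28 DNA replication genes (7.14%), of which 14.3% held TTTGAA. In these shares a gene with several windows was counted if any window held a motif, so both motifs may lie in different windows. A match of letters is a description of these windows and does not show that a factor binds there.

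The selecting counts spread over a wide range. No count on the 8 genes was found in 2932 cells, 1 count in 312 and 2 counts in 189. Just inside the threshold, 94 cells had 3 counts and 83 had 4. The median member had 11 counts and the highest 80, and 499 members (56.4%) had 10 or more. The number of cells fell from 1 count to 5 without a gap, so the threshold cut a continuous range rather than separating classes.

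**Figure D1:**
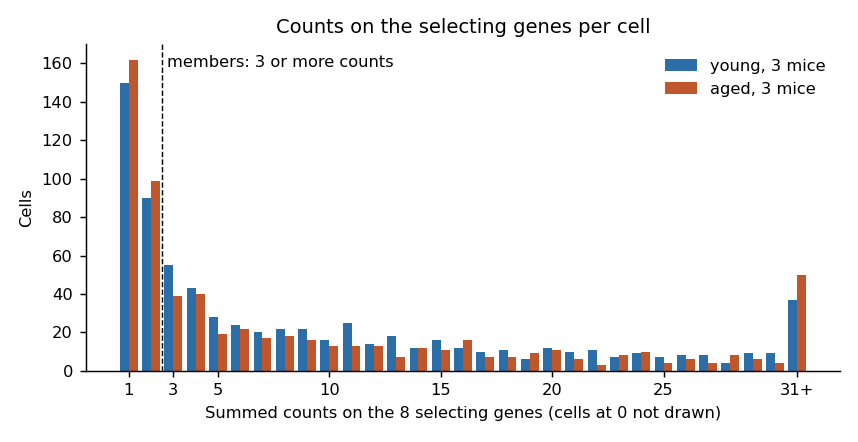
Number of cells (vertical axis) by summed counts on the 8 selecting genes (horizontal axis, cells at 0 left out, 31 and above pooled), for the 3 young and 3 aged mice together. The dashed line marks the threshold of 3 counts; 312 cells had 1 count and 94 had 3, and the bars run on without a gap to a long tail.

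Genes of mitosis that had no part in the selection were higher in members throughout. Of 58 such genes with at least 20 counts, 57 were higher in members than in the other cells of the same mouse in 6 of 6 mice, with a median log2 fold of 3.4. Over all 11406 genes with that many counts, 13.5% were higher in 6 of 6 mice and the median log2 fold was 0.04. With barcodes 1 base apart merged, 57 of 58 were again higher in 6 of 6 mice, with a median log2 fold of 3.46. The exception was Kif11, the motor that pushes spindle poles apart, which had only 39 counts in all members and was higher in 5 of 6 mice. Fold changes here are on the log2(CPM + 10) scale, which understates the change of genes near 0.

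Mitotic kinases and cyclins were high in members. Ccnb1, the cyclin B1 partner of CDK1, had 224 to 380 CPM in members and 2.38 to 5.84 CPM in other cells, a median log2 fold of 4.26. Ccnb2 ranged from 453 to 715 CPM in members against 22.7 to 38.2 CPM. Plk1, the kinase that acts on centrosomes and kinetochores, had 257 to 333 CPM against 1.95 to 12.1 CPM. Aurka, which matures the spindle poles, had 60.2 to 165 CPM, and the checkpoint kinases Bub1, Bub1b and Ttk reached 60.2 to 108, 108 to 249 and 94.4 to 150 CPM. All 14 kinases and cyclins with at least 20 counts were higher in members of every mouse, while Nek2, with 10 counts, was too low to describe.

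All 13 kinetochore genes were higher in members of every mouse. Cenpa, the histone variant that marks the centromere, had 654 to 778 CPM in members and 13.1 to 40.9 CPM in other cells. Cenpe, the motor that brings chromosomes to the spindle equator, had 448 to 665 CPM against 9.75 to 27.6 CPM. Spc25 and Nuf2, subunits of the NDC80 complex that grips microtubules, had median log2 folds of 4.14 and 4.19, and Mad2l1, the checkpoint protein, of 3.56. The levels of members and of other cells did not overlap for any of these genes.

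Spindle and cytokinesis genes followed the same pattern. Hmmr, a spindle assembly factor, had 376 to 565 CPM in members and 0 to 19.9 CPM in other cells. Tpx2, which activates Aurora A on the spindle, had 211 to 371 CPM, and Prc1, which bundles the central spindle, 258 to 368 CPM. All 9 cytokinesis genes were higher in every mouse, with a median log2 fold of 3.98. Anln, the scaffold of the contractile ring, led all genes outside the selecting set by its smallest fold in any mouse, with 529 to 718 CPM against 9.77 to 24.9 CPM. Kif23 and Racgap1, the 2 partners of centralspindlin, had 390 to 676 and 439 to 610 CPM in members. Birc5 and Incenp, which form the passenger complex with Aurora B, had median log2 folds of 3.87 and 3.98.

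The 20 genes outside the selecting set with the largest smallest fold over the 6 mice were Anln, Ccnb1, Cenpa, Hmmr, Kif23, Gas2l3, Aspm, Cenpe, Plk1, Kif20b, Pclaf, Birc5, Spc25, Nuf2, Fbxo5, Smc2, Tpx2, Incenp, Ect2 and Kif4. Of these, 17 stood in the mitotic or chromatin lists. The others were Gas2l3, a cytoskeletal linker of the dividing cell, Aspm, which focuses spindle poles, and Pclaf, a PCNA-binding factor. Pclaf had 425 to 841 CPM in members and 9.11 to 37.9 CPM in other cells. Their smallest fold in any mouse ran from 3.35 for Kif4 to 3.99 for Anln.

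**Figure D2:**
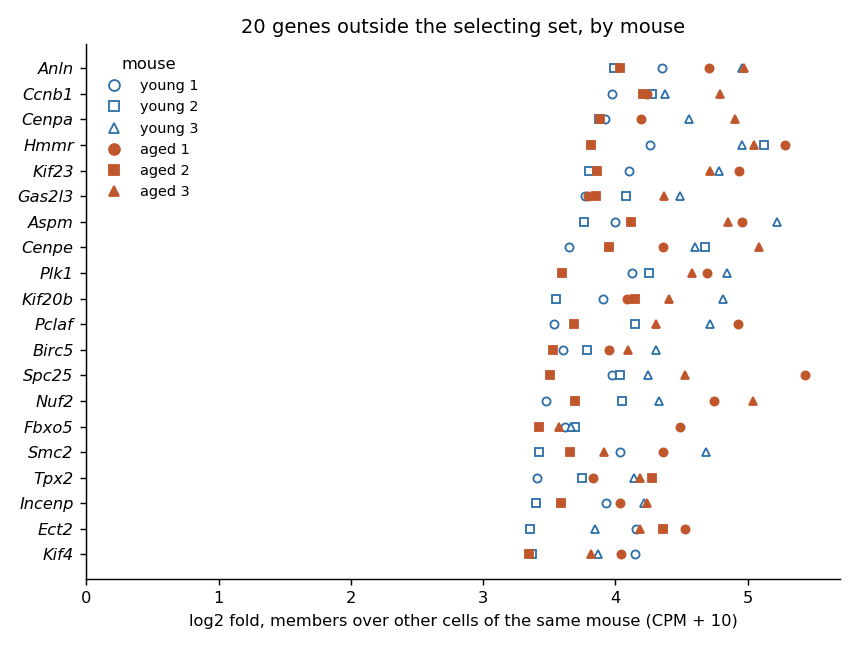
log2 fold of members over the other cells of the same mouse, on the CPM + 10 scale (horizontal axis), for the 20 genes outside the selecting set with the largest smallest fold; each point is a mouse, open for young and filled for aged. All points lie at 3.35 or above, and filled and open points overlap in 19 of the 20 genes; for Ect2 all 3 aged points lie above the young ones.

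Chromatin and tubulin genes differed by smaller amounts. Smc4, a core condensin subunit, had 1419 to 1902 CPM in members against 114 to 212 CPM, and Smc2 513 to 636 against 15 to 40.1 CPM. Lmnb1, of the nuclear lamina, and Hmgb2, a chromatin protein, had median log2 folds of 2.60 and 2.93. Of 7 tubulin genes and relatives, 5 were higher in members of every mouse and 2 lower, beside 13.5% and 10.2% of all genes. Tubb5 had 1410.2 to 1816 CPM against 209 to 351 CPM, whereas Tuba1a and Tubb2a were lower, with medians of 0 and 11.6 CPM in members against 7.82 and 30.0 CPM. Among genes of mitotic exit, Cdca3 had a median log2 fold of 3.72 and Fbxo5, the inhibitor of the anaphase-promoting complex, of 3.64, but Pttg1, the securin, only of 0.34.

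The label of G2 or mitosis held only in part, because many members also carried transcripts of DNA replication. At least 3 counts on the mitotic genes outside the selecting set were found in 94.4% to 100% of members by mouse, against 18.5% to 23.7% of other cells. At least 3 counts on 32 replication genes were found in 52.1% to 69.4% of members, against 9.86% to 23.8% of other cells. With each cell thinned to 1000 counts and at least 1 count asked for, 97.7% to 100% of members had a mitotic count and 57.1% to 76.5% a replication count, against 28.5% to 42.3% and 28.7% to 40.4% of other cells. Without thinning, at least 3 counts of each kind were seen in 50.4% to 69.4% of members. At least 3 mitotic counts with fewer than 3 replication counts were seen in 30.6% to 44.0%. With barcodes 1 base apart merged, 94.0% to 100% of members had the mitotic and 56.5% to 71.0% the replication counts. The rule thus gathered cells with late-cycle transcripts, many of which still carried those of replication.

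Of 31 replication genes with at least 20 counts, 26 were higher in members than in other cells of every mouse, beside 13.5% of all genes. Their median log2 fold was 1.49 (28 genes and 1.52 with barcodes merged). Rrm1, a subunit of ribonucleotide reductase, had 343 to 570 CPM in members against 33.4 to 72.6 CPM. Tk1, the thymidine kinase, had 199 to 327 CPM against 13.7 to 34.7 CPM, and Mcm5, of the replicative helicase, 148 to 315 against 16.7 to 66.1 CPM. A further 502 cells were not members but held at least 3 replication counts. Against these the median log2 fold of the replication genes was 0.11, and 7 of 31 were higher in members of every mouse, among them Rrm1, Rrm2, Tk1 and Clspn, against 6.65% of all genes. The mitotic genes outside the selecting set kept a median log2 fold of 3.16 against those cells, and 55 of 58 were higher in 6 of 6 mice. Those cells were chosen by their replication counts, so this is a description too.

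Levels across the range of selecting counts are given as a description with no test, because these counts are the values the rule used and the mitotic genes are known to be switched on together with the selecting genes. The summed level of the mitotic genes outside the selecting set was 4324 to 8662 CPM in members with 3 to 5 selecting counts, 10113 to 13919 CPM with 6 to 9, 13596 to 17796 CPM with 10 to 19 and 15059 to 19802 CPM with 20 or more. Cells with 2 counts, just outside the threshold, had 1241 to 3605 CPM. The replication genes had 1132 to 4055 CPM in members with 3 to 5 counts and 2716 to 4168 CPM with 6 to 9. They lay between 1632 and 4226 CPM at 20 or more counts. In 4 of 6 mice the replication level at 20 or more counts was below that at 10 to 19 counts, in aged mice 2 and 3 and young mice 1 and 3. Members with 20 or more counts were also deeper, with a median of 2705 to 4025 counts per cell against 1575 to 2776.5 for those with 3 to 5, and the part of depth was not tested.

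**Figure D3:**
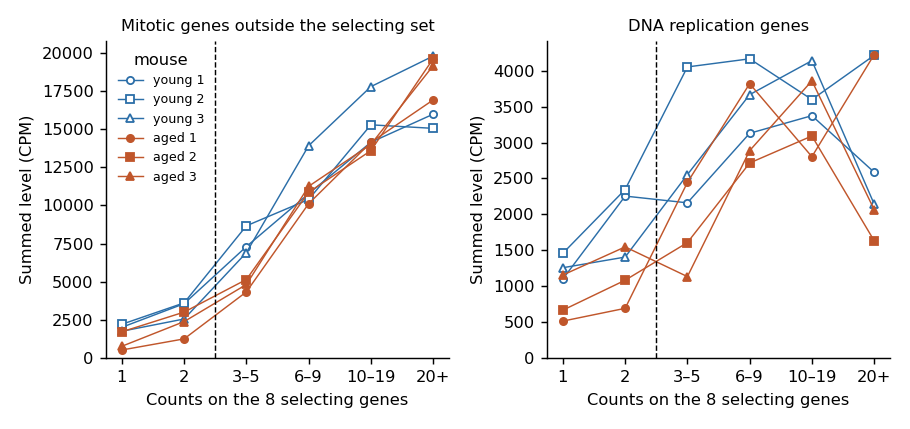
Summed level in CPM of mitotic genes outside the selecting set (left) and of DNA replication genes (right) by counts on the 8 selecting genes, one line per mouse (open, young; filled, aged); the dashed line is the threshold. Mitotic levels climb to 15059 to 19802 CPM, while replication levels peak at or before 10 to 19 counts in 4 of 6 mice.

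Members with a Cdc20 count were set beside those without one, again as a description with no test, since Cdc20 is a selecting gene. Cdc20 was seen in 434 members and not in 450. Of 58 mitotic genes outside the selecting set with at least 20 counts in members, 20 were higher in members with Cdc20 in 6 of 6 mice and none lower, and the median over mice was above 0 for 55 (median log2 fold 0.45). Over all 8472 genes with that many counts, 2.5% were higher and 1.98% lower in 6 of 6 mice. With barcodes merged, 24 mitotic genes were higher in 6 of 6 mice. Ccnb1 had a median of 406 CPM in members with Cdc20 and 155 CPM in those without, higher in 5 of 6 mice with a median log2 fold of 1.18. Plk1 (351 against 185 CPM), Cenpa (881 against 511 CPM) and Bub1b (182 against 81.3 CPM) were higher in 6 of 6 mice. The kinetochore subunit Ndc80 was higher in 1 mouse and Fbxo5 in 2 mice, with median log2 folds of -0.29 and -0.27. Of 31 replication genes, 10 were lower in members with Cdc20 in 6 of 6 mice and none higher, with a median log2 fold of -0.76 (14 lower with barcodes merged). Cdt1, which licenses origins, had a median of 12.3 CPM with Cdc20 and 79.8 CPM without, Hells 39.0 and 102 CPM, Mcm5 140 and 290 CPM, and Pcna 108 and 210 CPM, each lower in 6 of 6 mice. Dut, which removes dUTP, was higher in 3 of 6 mice, and Mcm2, Mcm7, Cdc6 and Tk1 were higher in 2. Members with Cdc20 had more counts per cell in every mouse (2136 to 3522.5 against 1848 to 2817.5). CPM takes account of depth, but a Cdc20 count is more likely in a deeper cell.

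Regulators of the cycle were low but several were higher in members. Foxm1, the factor of the G2 program, had 14.0 to 67.8 CPM in members against 0 to 3.25 CPM, a median log2 fold of 2.25. The repressor E2f8 had 55.8 to 88.9 against 6.50 to 15.5 CPM, and Rbl1, the p107 pocket protein, 82.6 to 132 against 13 to 29.2 CPM. The MuvB subunits Lin9, Lin37, Lin52 and Lin54 were each higher in 6 of 6 mice, with median log2 folds of 0.82 to 1.49. Mybl2, which encodes B-MYB, had only 19 counts in all members. Of 16 cycle regulators with at least 20 counts, 10 were higher in every mouse, and of 10 genes of DNA repair 8 were, beside 13.5% of all genes.

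Inhibitors of the cycle did not move together. Cdkn1a, which encodes p21, was lower in members of all 6 mice, with 112 to 299 CPM against 679 to 1077 CPM and a median log2 fold of -1.92. Ccnd2, a cyclin of G1, was also lower in 6 of 6 mice, with a median log2 fold of -0.41. Cdkn1b, which encodes p27, was higher, with 142 to 224 CPM against 46.2 to 103 CPM, as was Cdkn2c, which encodes p18, with 34.4 to 118 against 6.50 to 27.2 CPM. Of 18 genes of G1 or arrest with at least 20 counts, 3 were higher and 4 lower in every mouse, beside 13.5% and 10.2% of all genes.

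Members had the transcripts of basal keratinocytes. Of 12 basal genes, 10 were higher in members than in all other cells of every mouse, beside 13.5% of all genes, with a median log2 fold of 0.88. Krt5 had 5749 to 9218 CPM in members against 3199 to 5482 CPM, Krt14 2131 to 4680 against 1168 to 2616 CPM, and Trp63, the master factor of squamous epithelia, 404 to 765 against 331 to 408 CPM. Of 12 suprabasal genes, 11 were lower in every mouse, beside 10.2% of all genes. Krt13 had 2998 to 5701 CPM against 9950.0 to 18516 CPM and Krt4 2168 to 12596 against 17170.0 to 41346 CPM. The exception was Krt6a, a keratin of activated keratinocytes, which was higher in 6 of 6 mice with a median log2 fold of 0.58. Superficial genes were lower in every mouse for 8 of 10. The difference in basal genes was smaller against the 502 cells that held at least 3 replication counts and were not members. There the median log2 fold of basal genes was 0.32, and 7 of 12 were higher in every mouse, beside 6.65% of all genes. Of the suprabasal genes 11 of 12 were lower than in those cells in every mouse, and of the superficial genes 2 of 10. Markers of other cell types were near 0 in members: summed immune markers came to 0 to 43.0 CPM and endothelial ones to 0 to 8.58 CPM, with Tyrobp, Cd207, Cdh5 and Kdr at 0. Fibroblast markers summed to 254 to 458 CPM in members and 201 to 862 CPM in other cells, nearly all from Dcn and Sparc, while Col1a1 had 5 counts and Pdgfra 1 in all members.

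The share of members fell along the basal to suprabasal gradient. The cells of each mouse were ordered by the ratio of Krt5, Krt14 and Krt15 to Krt4 and Krt13 and cut into 5 equal bins. In bin 1, the most basal, 30.6% to 45.6% of cells were members, in bin 2 26.4% to 40.5%, and in bin 3 19.6% to 28.9%. Bin 4 held 0.70% to 11.2% members and bin 5, the most suprabasal, 0% to 1.6%. Thinned to 1000 counts, the medians over mice were 35.7%, 25.1%, 18.4%, 4.01% and 0%. With barcodes merged, bin 1 held 31.2% to 45.7% members and bin 5 0% to 3.67%. Bin 3, whose cells had 1.09% to 1.95% of counts on basal and 0.76% to 2.65% on suprabasal keratins, still held many members. By age the means were 36.4% ± 6.76 (SD, n = 3) in aged and 40.4% ± 5.39 (n = 3) in young mice for bin 1 and 25.4% ± 5.09 and 24.7% ± 1.63 for bin 3, with overlapping spreads.

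**Figure D4:**
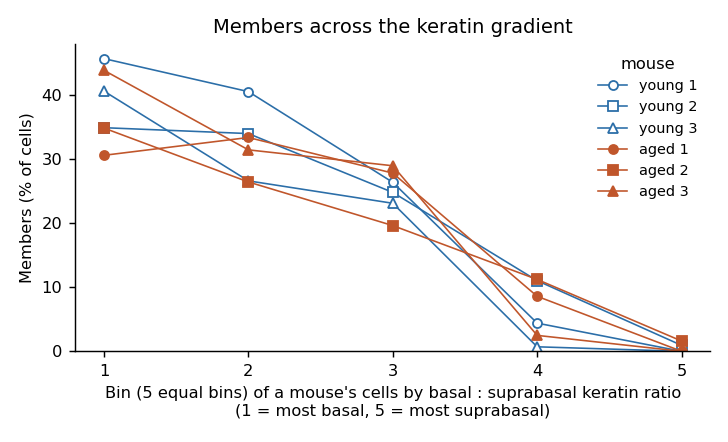
Share of cells that are members (vertical axis, %) in 5 equal bins of each mouse's cells ordered by the ratio of basal to suprabasal keratin counts (horizontal axis, 1 most basal), one line per mouse (open, young; filled, aged). Shares run from 30.6% to 45.6% in bin 1 down to 0% to 1.6% in bin 5.

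Free RNA can give counts in cells that do not express a gene, so the rule was also applied to the cells richest in superficial genes, a layer known not to divide. Where their counts come from was not tested. In the top 10% of each mouse by superficial counts 18 of 434 cells (4.15%) met the rule. This was 0 of 18, 10 of 125 (8%) and 1 of 61 in aged mice 1 to 3 and 3 of 103, 4 of 55 and 0 of 72 in young mice. Counts of 0, taken as at most 3 cells of the total, allow up to 16.7% in aged mouse 1 and 4.17% in young mouse 3. These cells were not alike in every mouse: superficial genes summed to 2650 CPM in aged mouse 1 and 4945 CPM in young mouse 2, against 20741 to 30410 CPM in the other 4, and basal genes to 7200.2 and 7820 CPM against 1568 to 3501 CPM. The median depth of these cells, 2002 to 3144 counts, was near that of members, and their share was below that of members among all cells in every mouse.

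The share of cells in the late cycle was compared between ages over the 6 mice. Members made up 20.2% of cells in aged mouse 1 (36 of 178, exact 95% interval 14.6% to 26.9%), 18.7% in aged mouse 2 (234 of 1250, 16.6% to 21.0%) and 21.4% in aged mouse 3 (129 of 604, 18.2% to 24.8%). In young mice 1 to 3 they made up 23.4% (240 of 1026, 20.8% to 26.1%), 21.1% (115 of 544, 17.8% to 24.8%) and 18.2% (130 of 715, 15.4% to 21.2%). Young mouse 3 was the lowest and young mouse 1 the highest, so the groups overlapped. The means were 20.1% ± 1.32 (SD, n = 3) in aged and 20.9% ± 2.61 (n = 3) in young mice, a difference of -0.80 percentage points (two-sided exact permutation test over mice, p = 0.8). With 3 mice against 3 this test cannot go below 0.1. The difference changed sign with either library alone, a mitochondrial limit of 10%, a threshold of 4 or 5 counts, or without young mouse 1, and with barcodes 1 base apart merged it was -1.87 percentage points (20.4% ± 1.42 against 22.2% ± 3.4, n = 3 each).

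The make-up of members was compared by the same exact permutation test in 4 further measures, and adjusted over all 5 each p was 1. Mitochondrial genes took 7.18%, 8.59% and 5.57% of the counts of members in aged mice 1 to 3 and 4.77%, 5.80% and 4.85% in young mice. Young mouse 2 exceeded aged mouse 3 (7.11% ± 1.51 against 5.14% ± 0.57, SD, n = 3 each, exact permutation p = 0.2). The other cells of the same mice had 7.61%, 8.60%, 5.79%, 4.91%, 5.84% and 4.78%, close to the members in each mouse.

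The log2 ratio of mitotic to replication counts in members was 1.87, 2.55 and 2.56 in aged mice and 2.21, 1.69 and 2.49 in young mice (difference 0.20, exact permutation p = 0.5, n = 3 each). Members with at least 3 replication counts made up 69.4%, 52.1% and 65.9% in aged and 62.9%, 61.7% and 63.8% in young mice (difference -0.34 percentage points, p = 1 by the exact permutation test). The log2 ratio of basal to suprabasal keratins was 1.61, -0.47 and 1.17 in aged and 0.58, 1.95 and 1.22 in young mice (difference -0.48, exact permutation p = 0.6). With barcodes 1 base apart merged the differences were 1.97 percentage points for the mitochondrial share, 0.20 for the mitotic ratio, -1.58 percentage points for the replication share and -0.53 for the keratin ratio. Aged mouse 2 was the lowest in the keratin ratio and the replication share, and without it those differences were 0.14 and 4.83 percentage points.

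Within members, 5 genes differed with age. To compare ages gene by gene, the counts of the members of each mouse were summed and 5488 genes passed the filter on low counts. By edgeR's quasi-likelihood test with Benjamini-Hochberg adjustment, 5 of these (0.0911%) passed an adjusted p of 0.05. Ccn1 and Ccn2 were higher in aged mice (0.0364%) and H19, Fst and Myb lower (0.0547%). Fst, Ccn2 and Myb passed the filter on low counts through the group where they were high. In the other group they had 15 (aged), 16 (young) and 2 (aged) counts in all members. An unadjusted p below 0.05 was reached by 263 genes, and DESeq2 called 5, of which 4 were shared. With barcodes 1 base apart merged 4 genes passed and without aged mouse 2 there were 5, of which 4 were shared in each case. Without young mouse 2 or young mouse 3, H19 and Fst were the 2 that passed.

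H19, an imprinted long noncoding RNA on chromosome 7 (142575530 to 142578146, GRCm38) that is high in growing fetal tissue, had the lowest p. Its level in members was 946, 1193 and 1101 CPM in aged mice 1 to 3 and 3070, 2623 and 3290 CPM in young mice. Every aged mouse was below every young mouse (log2 fold change -1.39 ± 0.19 SE, edgeR adjusted p = 0.000563). A count of H19 was found in 65.9% of aged and 80.2% of young members. H19 was also higher in members than in other cells of all 6 mice, with a median log2 fold of 1.63. In those other cells it averaged 327 ± 70.0 CPM over aged mice and 1093 ± 192 CPM over young ones (SD, n = 3). Non-members with at least 3 replication counts averaged 692 ± 183 CPM (aged) and 1873 ± 497 CPM (young; SD, n = 3). A level above that of other cells as a whole was thus not particular to members. It passed in all 22 alternatives.

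Fst, on chromosome 13 (114452262 to 114458989), encodes follistatin, a secreted inhibitor of activin. It had 8.60, 9.97 and 25.1 CPM in members of aged mice and 137, 151 and 88.9 CPM in those of young mice. The groups were far apart (log2 fold change -2.93 ± 0.43 SE, edgeR adjusted p = 0.000563). The level rested on 15 counts in 7 of 399 aged members and 146 counts in 68 of 485 young members. In other cells Fst averaged 20.3 ± 19.7 CPM (aged) and 97.5 ± 47.8 CPM (young; SD, n = 3).

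Ccn1 and Ccn2 encode secreted matrix-associated proteins known as targets of YAP. Ccn1, on chromosome 3 (145646971 to 145649985), had 550, 281 and 525 CPM in aged and 228, 67.8 and 165 CPM in young members (log2 fold change 1.52 ± 0.30 SE, edgeR adjusted p = 0.0399). Ccn2, on chromosome 10 (24595442 to 24598683), had 94.6, 49.9 and 109 CPM in aged and 17.2, 0 and 19.1 CPM in young members (2.63 ± 0.53 SE, edgeR adjusted p = 0.0474). Every aged mouse was above every young mouse for both, with aged mouse 2 the lowest of its group. The same direction was seen in other cells, with 258 ± 63.9 against 91.1 ± 16.8 CPM for Ccn1 and 63.6 ± 43.7 against 5.74 ± 2.23 CPM for Ccn2 (SD, n = 3). Both calls were lost without aged mouse 3 (edgeR adjusted p = 0.285 and 0.612) and without young mouse 2 (0.269 and 0.200) or young mouse 3 (0.246 and 0.134), and that of Ccn2 also without young mouse 1 (0.130). In members the summed fibroblast markers were 378, 353 and 458 CPM in aged and 297, 255 and 254 CPM in young mice. These sums did not overlap either. Among single genes tested in members, 3.52% were likewise higher in aged mice without overlap. In other cells the fibroblast sums were 517, 201 and 267 CPM in aged and 468, 862 and 254 CPM in young mice, and overlapped. The part of fibroblast RNA in the calls of Ccn1 and Ccn2 was not tested.

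Myb, on chromosome 10 (21124930 to 21160984), encodes a transcription factor of dividing progenitor cells. It had 0, 3.99 and 0 CPM in aged members and 39.5, 43.8 and 41.3 CPM in young members, from 2 counts against 47. The young mice were alike and the aged mice near 0 (log2 fold change -4.07 ± 0.84 SE, edgeR adjusted p = 0.0494). From the pooled counts the level was 20-fold higher in young members, with a 95% counting interval of 5.23 to 170. That interval takes each count as independent and does not cover the spread between mice. The 47 young counts came from 25 cells. In the other cells Myb averaged 9.71 ± 2.52 CPM (aged) and 13.2 ± 1.59 CPM (young; SD, n = 3). The test of whether the age difference was the same in members and other cells gave a log2 difference of -3.74 ± 1.04 SE with an edgeR adjusted p of 1.00. The call did not pass when any of the 6 mice was left out (edgeR adjusted p = 0.0651 to 0.439). The log2 fold change was -6.75 without aged mouse 2, which held both aged counts, so that this value depends on the prior count of the fit, and -3.49 without aged mouse 3. The call passed in 3 of the 17 alternatives in which it was tested.

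The 5 genes next in order whose groups did not overlap were all higher in aged members and did not pass. Over all tested genes, 193 (3.52%) had their lowest aged value above the highest young value and 438 (7.98%) the reverse. Sult1d1, a sulfotransferase, had 103, 184 and 142 CPM in aged and 49.8, 39.9 and 82.6 CPM in young members (log2 fold change 1.47, edgeR adjusted p = 0.0780). Hoxc8, a homeobox gene of regional identity, had 146, 201 and 184 CPM against 89.2, 95.7 and 44.5 CPM (1.32, edgeR adjusted p = 0.0780). Atf3, a stress-induced factor, had a log2 fold change of 0.98, Ndufa4l2, a mitochondrial protein induced by low oxygen, of 0.98, and Trib1, a pseudokinase, of 1.14 (edgeR adjusted p = 0.0802, 0.0922 and 0.169).

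Of the genes listed for age from earlier results of these data, H19, Fst, Ccn1 and Ccn2 passed here and Hoxc8 did not. They were chosen on these samples, so their direction is not independent evidence. Ank and Cdkn2a had too few counts to be tested. Cdkn2a, which encodes the senescence-linked inhibitor p16 and p19ARF, had 2, 9 and 3 counts in members of aged mice 1 to 3 and none in young members. Counts were found in 10 of 399 aged members (2.51%) and 0 of 485 young members. Taken as at most 3 cells, that 0 allows a share of up to 0.619% with a count in these pooled cells, a limit on cells with a count and not on cells that express the gene. With 3 counts over the young group as the floor, its pooled level was 5.49-fold higher in aged members. This value takes the 14 aged counts as exact and is not a lower limit. In other cells it was seen in 7 of 1633 aged cells (0.43%) and 0 of 1800 young cells. With no filter on low counts its edgeR adjusted p was 0.351.

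**Figure D5:**
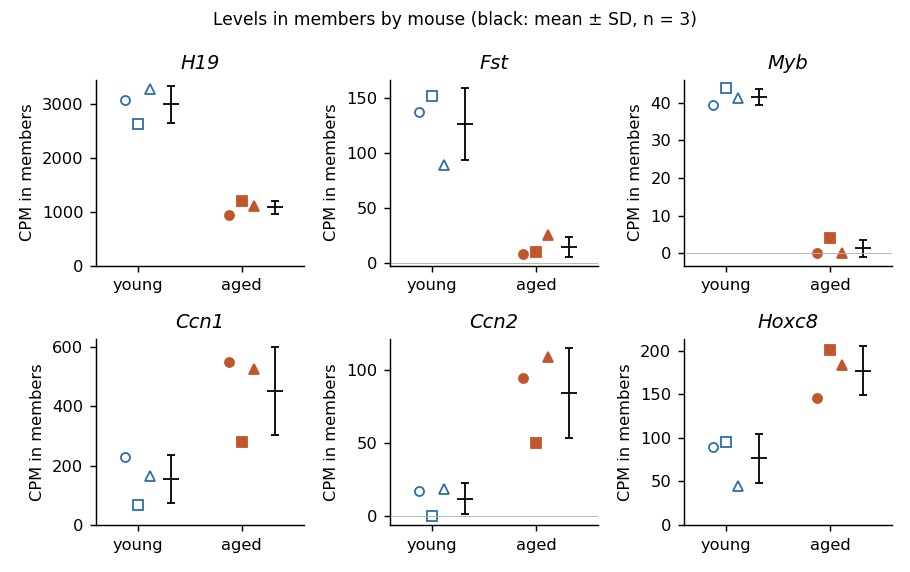
Level in members (CPM, vertical axes from 0, a scale for each gene) of the 5 genes that passed and of Hoxc8, which did not, in young (open) and aged (filled) mice; black bars are mean ± SD, n = 3. H19, Fst and Myb are lower and Ccn1, Ccn2 and Hoxc8 higher in every aged mouse than in any young mouse.

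No gene of the cycle itself passed between ages. Of 55 tested mitotic genes outside the selecting set none passed, 30 were above and 25 below 0, and their median log2 fold change was 0.06, against 0.02 over all genes tested. The selecting genes lay between -0.24 and 0.23. None of 13 kinetochore genes (median 0.30) or 9 cytokinesis genes (median -0.06) passed. Of 23 tested replication genes none passed, 16 were below 0, and the median was -0.21, with 5 whose aged mice were all below the young mice, against 7.98% of all genes tested. Of 9 tested cycle regulators none passed and 8 were below 0 (median -0.15), with 1 whose aged mice were all below the young mice. Of 10 tested condensin and chromatin genes none passed and 8 were below 0 (median -0.16), with 2 of that kind. The 12 basal genes had a median log2 fold change of 0.00 and none passed. A p that misses the threshold does not show that levels were the same.

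Whether the age difference was the same in members and in other cells was tested as an interaction over 8178 genes, with mouse sums of members and other cells in a single edgeR fit. None passed (0%), with 255 at an unadjusted p below 0.05, and DESeq2 called none, with 81. For H19 the log2 fold change with age differed by 0.27 ± 0.17 (SE) between members and other cells, for Fst by -0.21 ± 0.58, for Ccn1 by -0.06 ± 0.30 and for Ccn2 by -0.47 ± 0.73 (edgeR adjusted p = 1.00 for each). Without aged mouse 3 the interaction called 11 genes, 7 of them on the superficial or suprabasal lists, among them Slpi, Sprr3 and Cnfn. In the members of aged mouse 2 Slpi had 333 CPM, against 0 to 39.5 CPM in the other 5 mice. The sums used in this test do not by themselves tell fewer cells with a count from fewer counts per cell.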

How the data were processed

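Single-cell counts of peeled esophageal epithelium were measured in 12 inDrop libraries, 2 from each of 3 young and 3 aged C57BL/6 mice. The deposited values are raw counts per gene and barcode (whole numbers, 20230 genes). The submitters' processing notes name UMI-tools 1.0.0, STAR 2.7, Subread 2.0.0, featureCounts, Seurat and GRCm38, with no role or order, so how barcodes were filtered is not given in the sources used here. The labels' protocols describe inDrop but end with a phrase on Smart-Seq2.

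Counts were summed per barcode over both libraries of a mouse. Barcodes with at least 200 genes and at most 20% mitochondrial counts were kept, 4317 in all, with 535682 to 2563640 counts per mouse. Cells with at least 3 counts on 8 genes were members. The members and gene lists were chosen with earlier results of these data known. Scrublet (scanpy 1.11.5) marked doublets per library, 68 of 8440 barcode tests, and these were kept in the main results. Gene levels are CPM of member sums.

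Ages were compared with edgeR 4.0.16 (filterByExpr, TMM, quasi-likelihood test, Benjamini-Hochberg), fitted on all genes in sums of each mouse, and with DESeq2 1.42.0 as an alternative; the interaction was fitted over sums of members and other cells. Shares and ratios were compared by exact permutation over mice (20 assignments, smallest p 0.1). Scripts were tested on simulated data. As nothing states that numbered mice are separate animals, p-values measure the spread between these samples. Intervals and floors cover counting error only.

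Genes were named by rule: all selecting genes and the leading genes of each list; the 20 genes outside the selecting set of at least 50 CPM in members of every mouse with the largest smallest fold (CPM + 10); all genes called with age and the next 5 whose groups did not overlap; and genes named for age earlier. Kif11, Krt6a, Slpi, the examples from the interaction and the exceptions named in the Cdc20 split were chosen after their values were seen. Same-numbered mice did not deviate together (r = -0.159, -0.114 and -0.0162), so mice were not paired. Alternatives were thresholds of 2, 4 and 5 counts, thinning, either library alone, doublets left out, at least 2 selecting genes, a 10% mitochondrial limit, other filters and size factors, each mouse left out and, chosen after seeing the data, merging barcodes 1 base apart and leaving out the 10% of cells richest in superficial genes.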

Additional observations from a re-analysis of the deposited data

How the results depend on the processing

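The share of members differed between ages by 0.55 percentage points (aged minus young) with library 1 only, 0.61 with library 2 only, 0.012 with a mitochondrial limit of 10%, 0.035 and 0.041 with thresholds of 4 and 5 counts, against -0.80 as reported, and by -2.17 to 0.44 with a mouse left out. The mitotic to replication ratio differed by -0.021 to 0.43 with a mouse left out and the keratin ratio by -0.90 to 0.14. The share of members with replication genes differed by 0.0060 with at least 2 selecting genes, 0.58 with cells thinned, 0.91 with library 2 only, 1.48 with a threshold of 5 counts, and -3.82 to 4.83 with a mouse left out. The mitochondrial share kept its direction in all 17 alternatives (1.24 to 2.74 percentage points), among them the block by mouse number, which cannot change it.

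Genes that passed with age numbered 5 as reported. They numbered 3 with at least 2 selecting genes, doublets left out, a mitochondrial limit of 10%, a threshold of 2 counts or the mouse number as a replicate block, 2 with cells or sums thinned or a threshold of 5 counts, 1 with library 1 only, 19 with no filter on low counts, and 2 to 7 with a mouse left out. H19 passed in 22 of 22 alternatives, Fst in 18 of 20, Ccn1 in 15 of 22, Ccn2 in 9 of 19 and Myb in 3 of 17, all in the same direction. Sult1d1 and Atf3 passed in 4 of 22 each and Hoxc8 in 2, while Ndufa4l2 and Trib1 passed in none. The interaction called 14 genes with no filter and 0 to 11 with a mouse left out, the 11 without aged mouse 3, and 0 in the other alternatives run. The cause of these changes was not tested. The mouse number is shared by the mice without any stated pairing. A block by it cannot change a difference of mean shares or ratios in this balanced design, so it says nothing about their stability. Low counts limit Myb, Ank and Cdkn2a, and Fst and Ccn2 in the group where they were low. Aged mouse 1 had only 36 members.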

Other observations

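In members, 16 genes of the immediate early response, a list chosen after the values were seen and given with no test, were all above 0 in aged against young mice, with a median log2 fold change of 0.61, against 0.02 over all 5488 genes. They include Fos (0.37), Jun (0.63), Egr1 (0.81), Klf6 (0.95) and Nr4a1 (0.68), which encode transcription factors that cells induce within minutes of a stimulus such as dissociation of a tissue. None passed by edgeR, the lowest adjusted p being 0.0802 for Atf3, and in 5 of the 16 every aged mouse was above every young mouse, as in 3.52% of all genes tested. These values are for members only and do not mark the rise as particular to them. Between members and other cells the log2 fold change with age differed by 0.006 ± 0.17 (SE) for Atf3 and 0.49 ± 0.27 for Trib1, and values for the rest are not given here.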
